A study of Homo sapiens with 2 samples.

Results

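The genes of CTCF and the cohesin complex were examined in the epithelial breast cancer line CAMA-1. They comprised 9 of 20033 protein-coding genes. Open chromatin was profiled by ATAC-seq, an assay that cuts and tags exposed DNA with the Tn5 transposase. There was 1 condition with 2 biological replicates of 50000 cells, grown in DMEM with 10% fetal bovine serum and given no treatment. The genes were chosen by name: CTCF, RAD21, SMC3, STAG1, NIPBL and WAPL, which most cells use, and CTCFL, SMC1B and REC8, known as testis-restricted. All peaks that overlapped a GENCODE gene body or the 20 kb on either side of it were assigned to that gene. These were 144 of 245736 peaks in replicate 1 (0.0586%) and 152 of 259745 in replicate 2 (0.0585%), and all coordinates are in hg38.

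CTCF is a zinc finger protein that binds DNA at insulators and loop anchors. Cohesin is a ring formed by SMC subunits, a kleisin and a STAG subunit, which extrudes chromatin loops until it meets bound CTCF and also holds sister chromatids together. NIPBL loads cohesin onto chromatin and stimulates extrusion, while WAPL releases it. In germ cells the paralogs CTCFL (also called BORIS), SMC1B and the meiotic kleisin REC8 stand beside or replace their somatic counterparts, and these genes are normally quiet in somatic tissue.

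The clearest contrast lay at the promoters, and the sequences of 4 of them are shown, of the gene with the strongest TSS peak and of the 3 testis-restricted genes. RefSeq promoter windows (GRCh38.p14, from 250 bp before to 50 bp after the start) matched 8 of the 9 genes by symbol. The windows shown are those at the start of the MANE Select transcript, the representative one of a gene, and capitals mark CpG dinucleotides, of which CTCF held 46, SMC1B 34, REC8 26 and CTCFL 15. The windows of CTCF and SMC1B lay under peaks over 300 of their 300 bp in both replicates. Those of REC8 and CTCFL had 0 bp under a peak in either replicate. SMC3, with 23 CpGs, was also under a peak over all 300 bp in both replicates. By the observed/expected CpG ratio, the windows under peaks ran from 0.938 to 1.17, that of REC8 had 0.838 and the 3 windows of CTCFL had 0.533 or less.
CTCF, chr16:67562276-67562575, plus strand: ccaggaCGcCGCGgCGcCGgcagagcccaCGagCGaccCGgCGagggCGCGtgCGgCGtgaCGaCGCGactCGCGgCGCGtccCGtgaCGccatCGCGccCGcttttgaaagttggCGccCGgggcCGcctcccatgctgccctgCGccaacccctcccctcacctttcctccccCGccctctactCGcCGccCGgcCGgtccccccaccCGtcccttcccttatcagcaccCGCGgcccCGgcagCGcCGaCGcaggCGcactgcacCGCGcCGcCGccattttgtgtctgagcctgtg
SMC1B, chr22:45413550-45413849, minus strand: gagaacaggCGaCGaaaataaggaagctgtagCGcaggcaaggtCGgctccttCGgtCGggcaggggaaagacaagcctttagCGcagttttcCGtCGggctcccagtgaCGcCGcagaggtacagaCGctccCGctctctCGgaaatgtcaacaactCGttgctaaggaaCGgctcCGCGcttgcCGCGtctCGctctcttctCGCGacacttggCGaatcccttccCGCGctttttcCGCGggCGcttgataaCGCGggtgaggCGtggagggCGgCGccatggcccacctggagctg
REC8, chr14:24171830-24172129, plus strand: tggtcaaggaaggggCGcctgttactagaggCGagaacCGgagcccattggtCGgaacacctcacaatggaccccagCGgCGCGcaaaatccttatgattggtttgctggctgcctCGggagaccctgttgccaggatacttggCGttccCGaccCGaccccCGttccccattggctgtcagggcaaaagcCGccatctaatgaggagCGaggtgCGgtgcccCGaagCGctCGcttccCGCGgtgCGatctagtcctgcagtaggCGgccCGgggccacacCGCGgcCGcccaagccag
CTCFL, chr20:57525091-57525390, minus strand: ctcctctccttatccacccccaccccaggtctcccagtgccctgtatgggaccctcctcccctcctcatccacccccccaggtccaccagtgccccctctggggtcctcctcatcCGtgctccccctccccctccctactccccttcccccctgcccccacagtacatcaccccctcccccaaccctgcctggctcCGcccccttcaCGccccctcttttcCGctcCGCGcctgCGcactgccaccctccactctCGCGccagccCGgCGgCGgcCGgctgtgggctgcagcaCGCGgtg

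Short motifs were searched on both strands of these windows and counted even where they overlapped one another. GGGCGG, the GC box bound by SP factors, occurred in the windows of 8 of 8 matched genes, against 45.0% of 35116 RefSeq promoters. The windows of these genes had a GC content from 56.0% in SMC3 to 76.3% in WAPL. The 45.0% is over promoters of any base composition, and no share matched for it was taken. GCGGGAA, an E2F-type motif, was present in STAG1, SMC1B and REC8 (6.55% of all promoters). CCAAT was present in STAG1, WAPL and REC8 (34.6%), and the ETS-type motif CCGGAAG in NIPBL (10.3%). The E-box CACGTG (7.26%) and the CRE TGACGTCA (1.85%) were found in 0 of the 8 genes. The REC8 and CTCFL windows without a peak shared the GC box with the open ones, and a match describes letters and not binding.

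At their transcription start sites (TSSs), 6 of 6 ubiquitous genes carried a peak in both replicates, and 2 of 3 testis-restricted genes did. A TSS peak is a peak within 1 kb of any annotated TSS of the gene. The background was high, since 79.3% of protein-coding genes (15890 of 20033) had one, so that 6 of 6 is not particular to these genes. With 1 condition and 2 replicates no test between genes was made, and SDs over 2 values are rough. Strength separated the groups more than presence did. Peak strength is given as the fold enrichment, the ratio of the stacked reads at the highest base to the background of the peak caller, with 1 read added to both. It does not scale with gene length. The median TSS fold enrichment of the ubiquitous genes was 86.2 in replicate 1 and 83.0 in replicate 2. For the testis-restricted genes with a peak it was 12.8 and 17.7, so that the ratio of medians was 6.75 and 4.69 (5.72 ± 1.45, SD, n = 2). This median is of 2 genes, SMC1B and REC8, and with only the most 5′ TSS, which leaves SMC1B alone, the mean ratio was 3.68, while by the −log10 q it was 10.0. Among the 50000 strongest peaks of each replicate, 0 of the 3 testis-restricted genes kept a TSS peak, against 6 of 6 ubiquitous genes and 61.4% of all protein-coding genes (12298 of 20033). Over all protein-coding genes with a TSS peak, the median was 51.1 and 52.6.

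**Figure D1:**
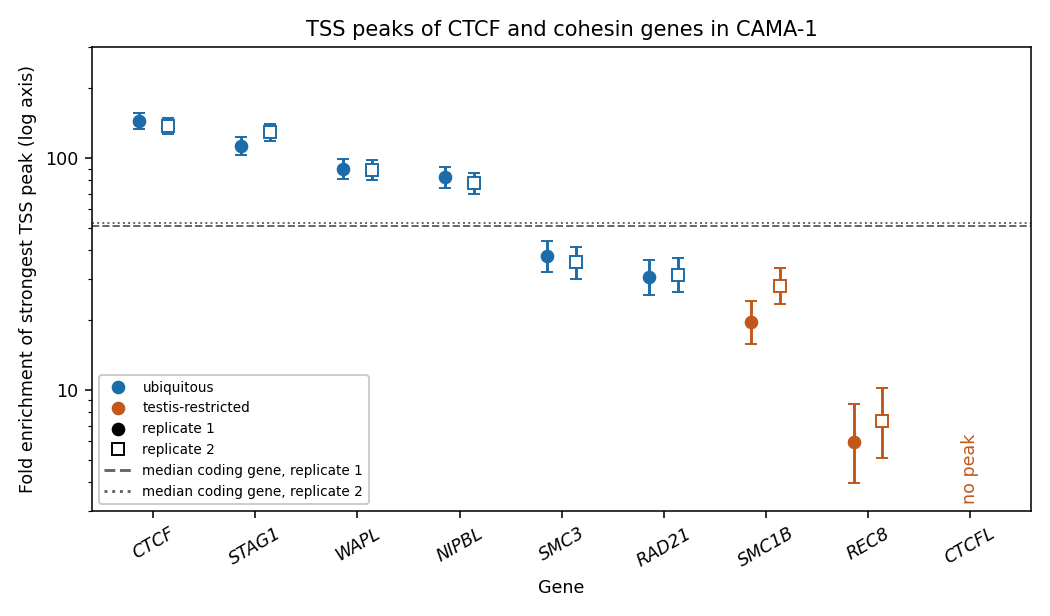
Fold enrichment of the strongest TSS peak of each gene (log axis) in replicate 1 (filled circles) and replicate 2 (open squares), with exact Poisson 95% intervals of the peak height that cover counting error only; blue marks ubiquitous and orange testis-restricted genes, and the lines mark the median of all protein-coding genes with a TSS peak. CTCF, STAG1, WAPL and NIPBL lie above those medians of 51.1 and 52.6, the other genes lie below them, and CTCFL has no peak.

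CTCF itself had the strongest TSS peak of the 9 genes. Its fold enrichment was 144 in replicate 1 and 137 in replicate 2 (140.3 ± 4.58, SD, n = 2), from heights of 623 reads (95% interval 575 to 674) and 619 reads (571 to 669.7). In replicate 1 this ranked 771 among 16050 protein-coding genes with a TSS peak, and in replicate 2 it ranked 954 among 16147. The peak at chr16:67561524-67563558 was 2035 bp wide in replicate 1 and also covered the start of CTCF-DT, a lncRNA transcribed away from CTCF from 158 bp upstream. The 1 kb around the most 5′ TSS had a GC content of 76.6% and an observed/expected CpG ratio of 0.949, with 139 CpGs.

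Away from its promoter, CTCF (chr16:67562467-67639177, plus strand) had its strongest other regions outside the gene. Inside it, the 4 regions classed as intronic reached a mean fold enrichment of no more than 7.65, a region at 1611 bp, near a lncRNA start, had 15.9, and one at 51560 bp, at an internal TSS, had 9.12. Regions here are peaks of the replicates that overlapped by at least 1 bp, merged. The strongest lay at −15254 bp from the TSS, in the upstream flank, with fold enrichments of 64.9 and 63.7 (64.3 ± 0.850, SD, n = 2). At 87175 bp, within 1 kb of a TSS of CARMIL2, a gene of actin regulation, the values were 50.2 and 51.5. At 79802 bp, downstream of the gene, they were 39.1 and 44.7. In all, 24 regions over CTCF were called in both replicates, of which 13 lay at TSSs of other genes, most of them with mean fold enrichments under 10.

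Among the subunits of the ring, STAG1 stood far above SMC3 and RAD21. STAG1, a STAG subunit of cohesin, had TSS fold enrichments of 113 and 129 (121 ± 11.0, SD, n = 2), from heights of 491 reads (449 to 536) and 581 reads (535 to 630.2). The peak at chr3:136751328-136753281 covered the start of STAG1-DT, 227 bp upstream. SMC3, an ATPase arm of the ring, had fold enrichments of 37.7 and 35.4 (36.6 ± 1.67, SD, n = 2) at chr10:110566993-110568517. The height of the STAG1 peak exceeded that of SMC3, 163 and 159 reads, beyond the counting intervals in both replicates. Among protein-coding genes with a TSS peak, SMC3 was below the median, at the percentiles 36.3 and 32.9.

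RAD21, the mitotic kleisin that closes the ring, had the weakest TSS peak of the ubiquitous genes. Its fold enrichments at the TSS of the gene (chr8:116845934-116874776, minus strand) were 30.6 and 31.4 (31.0 ± 0.564, SD, n = 2), from heights of 132 reads (110.4 to 157) and 141 reads (119 to 166), at the percentiles 28.5 and 28.8 of protein-coding genes with a TSS peak. The values of RAD21 lay below those of SMC3 in both replicates, but the counting intervals of their heights overlapped (139 to 190.0 reads for SMC3 in replicate 1). Within 2 Mb of RAD21, 7 of the 7 other protein-coding genes with a TSS peak had a stronger one in each replicate. The overlapping antisense gene RAD21-AS1 starts within 1 kb of the RAD21 TSS, so accessibility there cannot be told apart between them. Further RAD21 regions, at 9415, 22813 and 23429 bp, lay at internal annotated TSSs with mean fold enrichments of 14.9, 7.25 and 16.7.

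The loader and the release factor had peaks of like strength. NIPBL had TSS fold enrichments of 82.8 and 77.6 (80.2 ± 3.69, SD, n = 2) at chr5:36875807-36877744, a peak that covered the start of NIPBL-DT, 69 bp upstream. WAPL had fold enrichments of 89.5 and 88.5 (89.0 ± 0.746, SD, n = 2) at chr10:86520883-86522317, with WAPL-DT 153 bp upstream. The WAPL values were above the NIPBL values in both replicates, but the counting intervals of the heights overlapped (323 to 398 reads for NIPBL and 350.3 to 429 for WAPL in replicate 1). WAPL had the strongest TSS peak of its neighbourhood, with 0 of 15 protein-coding genes within 2 Mb above it in either replicate.

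A start on the opposite strand within 1 kb was annotated for 6 of the 9 genes, all but SMC3, CTCFL and REC8, against 30.5% of protein-coding genes (6120 of 20033). The partner was a lncRNA for CTCF, RAD21, STAG1, NIPBL and WAPL. For SMC1B it was the protein-coding RIBC2.

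SMC1B, the meiotic counterpart of SMC1A, was the testis-restricted gene with an open promoter. Its TSS fold enrichments were 19.6 and 28.1 (23.8 ± 6.03, SD, n = 2) at chr22:45413502-45414242. The heights, 84 reads (67.0 to 104) and 126 reads (105 to 150.0), had intervals that did not overlap between the replicates. These values were below those of RAD21 in each replicate, but in replicate 2 the interval overlapped that of RAD21 (119 to 166 reads). The nearest start of RIBC2 lies 74 bp upstream on the opposite strand, under the same peak, and the peak midpoint lay on that side, at −253 bp in replicate 1. Accessibility of the SMC1B and RIBC2 starts cannot be told apart here.

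REC8, the meiotic kleisin, had weak peaks only, and none at its 5′ start. The strongest peaks counted at a TSS had fold enrichments of 5.98 in replicate 1 and 7.30 in replicate 2 (6.64 ± 0.930, SD, n = 2), with heights of 25 reads (16.2 to 36.9) and 32 reads (21.9 to 45.2). They were different peaks, at 7811 bp in replicate 1 and 1329 bp in replicate 2, near internal annotated TSSs. The peak nearest to the MANE Select TSS began 957 bp from it in replicate 1 and 986 bp in replicate 2, with fold enrichments of 5.52 and 7.30. In total 5 REC8 regions lay near its annotated TSSs in both replicates, with mean fold enrichments from 3.84 to 6.41. The percentiles of the strongest ones among protein-coding genes with a TSS peak were 4.16 and 6.47.

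CTCFL, the germline paralog of CTCF, had no TSS peak in either replicate. The nearest peak to its most 5′ TSS lay 4326 bp away in replicate 1, with a fold enrichment of 3.91, and 6165 bp away in replicate 2, with 3.54. These were different peaks, each called in 1 replicate only. The CTCFL gene body was nevertheless not closed. Its 3 intronic regions, at 11221, 15796 and 26674 bp, had fold enrichments of 15.4 and 16.1, of 38.9 and 41.6, and of 23.7 and 27.2 in the replicates. A region at 30272 bp, at the start of the pseudogene HMGB1P1, had 26.9 and 24.3. The strongest CTCFL intron, with heights of 168 reads (144 to 195) and 187 reads (161 to 216), overlapped the SMC3 promoter in its counting intervals in both replicates, in a gene without a peak at its own start.

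Base composition set CTCFL apart from the other genes but not REC8. By the 1 kb around the most 5′ TSS, 8 of the 9 genes were CpG-rich, the exception being CTCFL. CpG-rich meant a GC content of at least 50% and an observed/expected ratio of at least 0.6. Of protein-coding genes, 11620 of 20033 met this. CTCFL had a GC content of 67.2% but a ratio of 0.244, with 17 CpGs. A peak within 1 kb of the most 5′ TSS in both replicates was present in 71.7% of all protein-coding genes, in 89.3% of those with a CpG-rich promoter and in 47.5% of the others. Among genes with a GC content of at least 60% and a ratio under 0.4, as at the most 5′ TSS of CTCFL, it was present in 69.9% (397 of 568). REC8 was CpG-rich, with a GC content of 62.6% and a ratio of 0.726, and had no peak within 1 kb of this TSS. Among the 7 genes with a peak there, the ratio ran from 0.772 in SMC3 to 0.985 in STAG1.

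**Figure D2:**
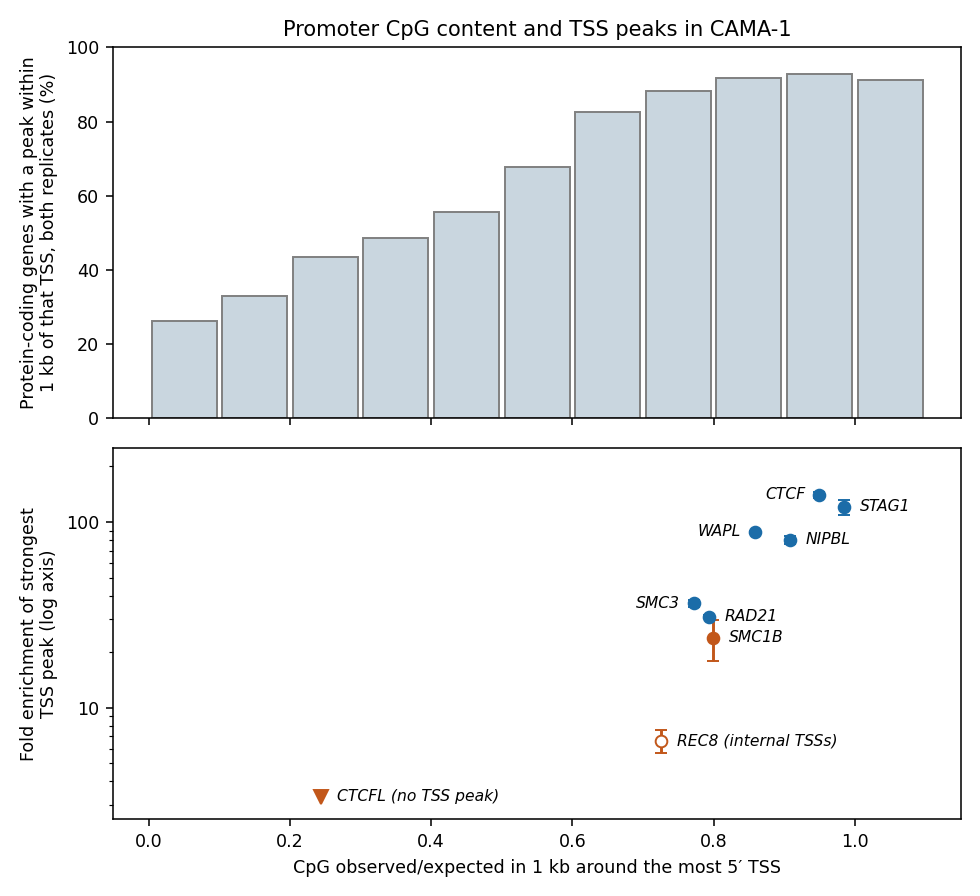
Top, share of protein-coding genes with a peak within 1 kb of the most 5′ TSS in both replicates, by the observed/expected CpG ratio in the 1 kb around that TSS, in bins of 0.1; bottom, mean fold enrichment of the strongest TSS peak (log axis, bars are the SD of 2 replicates) of each gene at its ratio, in blue for ubiquitous and orange for testis-restricted genes. The share rises from 26.2% in the lowest bin to 92.8% in the bin from 0.9, CTCFL at 0.244 has no TSS peak (triangle, drawn at the foot of the axis), and the open circle of REC8 stands for peaks at internal TSSs.

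Over the 9 genes and their flanks, 168 regions had a peak in at least 1 replicate and 124 of them in both (73.8%, against 77.1% over the genome). The windows held 9.51 such regions per 100 kb, against 6.97 over the genome, a value not limited to genes and their flanks. By gene the density was 20.7 in REC8, 20.6 in CTCF and 17.4 in RAD21. In the other genes it ran from 6.10 in NIPBL to 9.13 in SMC1B. Of the 124 regions, 49 were intronic, 23 lay at TSSs of other genes, 17 downstream, 16 upstream, 16 at the own TSSs and 3 in exons. STAG1 had 33 over a gene of 416 kb, CTCF 24, NIPBL 14, RAD21 12, WAPL 10, SMC1B 10, REC8 10, SMC3 6 and CTCFL 5. Fold enrichments of the 124 regions agreed in rank between the replicates (Spearman correlation 0.930 across regions, which are not independent). They differed by over 1.5 times in 7 regions, all with a mean fold enrichment of 10.2 or less. The remaining 44 regions were weak, with fold enrichments of 3.45 to 6.21 in the 18 that only replicate 1 had and of 3.32 to 7.96 in the 26 that only replicate 2 had. The strongest of these lay in a STAG1 intron at 244403 bp.

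**Figure D3:**
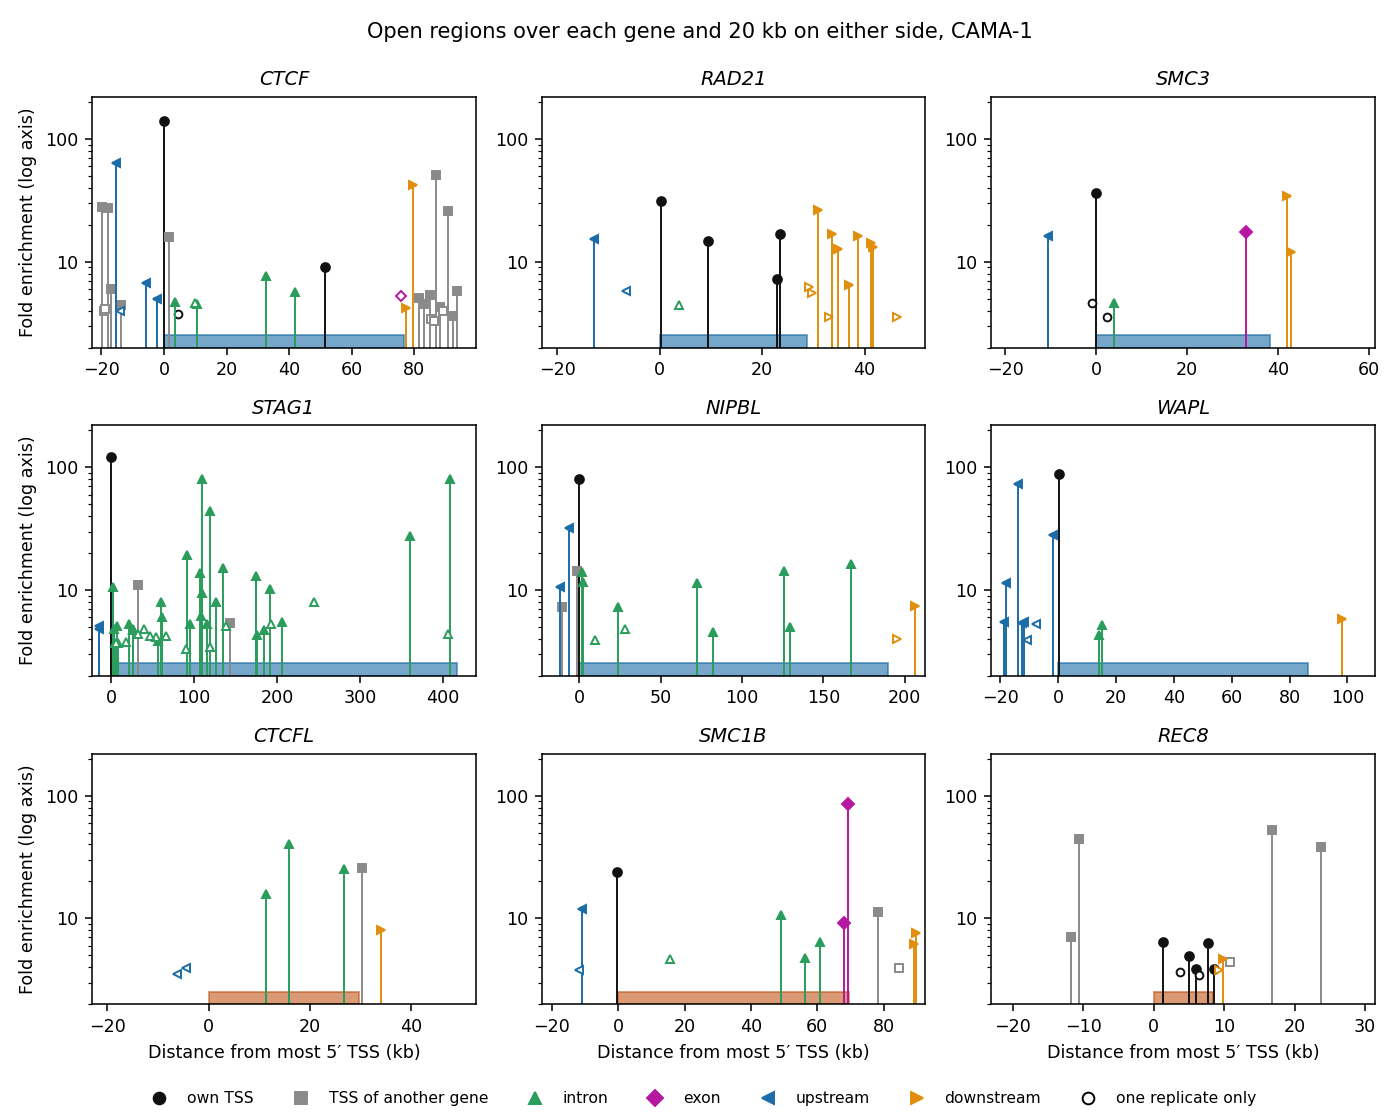
Open regions over each gene and the 20 kb on either side, by the distance of their midpoint from the most 5′ TSS in the direction of transcription (kb) and their fold enrichment (log axis); filled symbols are means of 2 replicates, open symbols were called in 1 replicate only, and the bar along the axis is the gene body. The tallest symbol stands at the own TSS in CTCF, RAD21, SMC3, STAG1, NIPBL and WAPL, but in an intron of CTCFL, at the 3′ end of SMC1B and at other genes' TSSs around REC8.

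In the ubiquitous genes the own TSS was the strongest region of the window in 6 of 6 genes, while in the testis-restricted genes it was so in 0 of 3, against 36.0% of all protein-coding genes (7221 of 20033). For SMC3 and RAD21 this order lay within counting error. In replicate 1 the SMC3 TSS had 163 reads (139 to 190.0) and the region at 42103 bp 150 reads (127 to 176), while the RAD21 TSS had 132 reads (110.4 to 157) and the region at 30932 bp 112 reads (92.2 to 135). The strongest region over SMC1B was at its 3′ end (chr22:45344331-45344701), overlapping the last annotated exon, with its midpoint 453 bp from the end of the gene. Its fold enrichments were 84.0 and 87.1 (85.6 ± 2.22, SD, n = 2), over 3 times the TSS peak in each replicate. Around REC8 the strongest regions belonged to neighbours. They lay at the TSSs of IPO4, an importin gene, with 45.3 and 58.6, of IRF9 and RNF31 with 44.2 and 44.9, and of TM9SF1 with 39.3 and 36.9. Away from the own TSSs, the regions of the testis-restricted genes had median fold enrichments of 11.5 and 11.1 (19 regions). Those of the ubiquitous genes had 7.13 and 7.74 (89 regions). Of the 19 regions, 6 lay at TSSs of other genes. Over regions more than 1 kb from TSSs of any gene, the medians were 8.05 and 9.07 (13 regions) against 7.02 and 8.29 (72 regions), and 8.97 and 9.29 over the genome.

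Regions away from promoters that exceeded the SMC3 promoter in both replicates were present in 3 of the ubiquitous genes, STAG1, WAPL and CTCF. STAG1 had 3 such introns, at 109480 bp (chr3:136642627-136643219) with 76.9 and 84.2, at 408357 bp (chr3:136343471-136344621) with 76.2 and 84.0, and at 119618 bp with 40.7 and 46.9. WAPL had an upstream region at −13735 bp (chr10:86535091-86535964) with 72.2 and 73.2, and a weaker one at −1838 bp with 26.9 and 29.0. Inside the WAPL gene, only 2 regions were called in both replicates, with mean fold enrichments of 5.18 and 4.27. CTCF had its regions at −15254 bp and at 79802 bp. For CTCF at 79802 bp and STAG1 at 119618 bp, the counting intervals overlapped that of the SMC3 promoter in both replicates. They were 144 to 196 and 151 to 204 reads in replicate 1 (SMC3 139 to 190.0). In replicate 2 they were 174 to 231 and 183 to 241 reads (SMC3 135 to 186). In NIPBL, RAD21 and SMC3 no region away from the own TSS exceeded a mean fold enrichment of 34.6, the value of SMC3 at 42103 bp. NIPBL reached 31.8 and 32.7 at −6133 bp, and RAD21 reached 26.0 and 26.8 at 30932 bp, downstream of the gene.

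**Figure D4:**
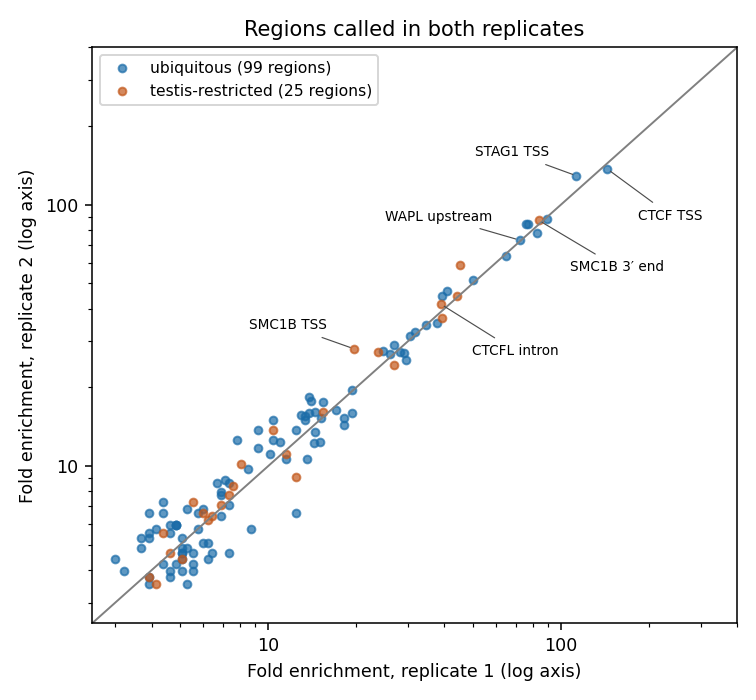
Fold enrichment in replicate 1 against replicate 2 (log axes) for the 124 regions called in both replicates, in blue for the 99 regions of ubiquitous and in orange for the 25 of testis-restricted genes; the line marks equal values. The TSS peaks of CTCF and STAG1 are the strongest, the SMC1B 3′ end lies among the strongest regions in both replicates, and the SMC1B TSS lies on the side of higher values in replicate 2.

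Whether the open regions hold the motif of CTCF itself was then asked, by its 12-letter consensus on both strands. An exact match was present in 2 of the 108 regions away from the own TSSs (1.85%, Wilson 95% interval 0.509 to 6.50%). Over the genome, 3.23% of regions that lay more than 1 kb away from TSSs held one. The corresponding count among the gene regions was 1 of 85 (1.18%). The matches were at −15254 bp of CTCF and at the IRF9 and RNF31 start beside REC8. The STAG1 TSS region held 2 exact matches, an internal TSS region of RAD21 at 23429 bp held 1, and a weak SMC1B intron, called only in replicate 2 with 4.64, held 1. With up to 1 mismatch anywhere in the region, 18.8% of the 85 regions had a match (16 regions, 11.9 to 28.4%), where the genome had 15.1%. An exact match within 50 bp of the midpoint was present in 0 of the 85, where the genome had 1.84%. With 1 mismatch allowed and within 50 bp, a setting chosen after seeing the data, the share was 14.1% (12 regions, 8.26 to 23.1%), where the genome had 7.82%. The intervals cover counting error only and no test was made, and the share of the genome lay within the interval in the planned settings but below it in the last one.

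Some of the matches in named regions are shown because they give the DNA in open regions of a CTCF paralog and of cohesin genes. The 3 strongest regions away from the own TSSs held 0 matches with up to 1 mismatch in STAG1, WAPL, RAD21 and SMC1B, among them the strong STAG1 introns and the SMC1B 3′ end. In CTCF the region at −15254 bp held such matches, but those at 87175 and 79802 bp held 0. Beside REC8 the region at the IRF9 and RNF31 start held a match, but those at the IPO4 and TM9SF1 starts held 0. Over the genome, 15.1% of regions more than 1 kb from TSSs held one. Capitals mark the 12 matched bases, with 20 bases on either side and the strand of the match. The first 2 lines are exact matches, which lay off centre, −62 bp from the midpoint in CTCF and 108 bp in STAG1, whose other match lay at 50 bp. The others have 1 mismatch. All 3 of the strongest such regions held a match with up to 1 mismatch in NIPBL, at 3, 84 and 13 bp from the region midpoint, and in SMC3, at 35, 26 and −10 bp. So did the 3 intronic regions of CTCFL, at −22, 15 and 1 bp. The last of them is named although it was not among the 3 strongest regions, after its value was seen. The CTCFL region at 30272 bp, which was among those 3, held 0 matches. The matches at −6133 bp of NIPBL, 3 bp from the midpoint, and at −10473 bp of SMC3, −10 bp from it, were also within 50 bp. The SMC3 region had fold enrichments of 18.2 and 14.4.
CTCF at −15254 bp, chr16:67547126-67547177, plus strand: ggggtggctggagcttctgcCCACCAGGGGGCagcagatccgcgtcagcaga
STAG1 at the TSS, chr3:136752387-136752438, minus strand: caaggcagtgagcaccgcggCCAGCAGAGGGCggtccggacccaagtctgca
CTCFL at 15796 bp, chr20:57509809-57509860, minus strand: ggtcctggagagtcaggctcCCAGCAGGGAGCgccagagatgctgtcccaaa
CTCFL at 26674 bp, chr20:57498968-57499019, plus strand: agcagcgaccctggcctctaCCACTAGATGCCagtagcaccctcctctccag
CTCFL at 11221 bp, chr20:57514407-57514458, plus strand: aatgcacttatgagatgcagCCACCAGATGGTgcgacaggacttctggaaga
NIPBL at −6133 bp, chr5:36870614-36870665, minus strand: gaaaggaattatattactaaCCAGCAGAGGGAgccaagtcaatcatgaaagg
SMC3 at 42103 bp, chr10:110609797-110609848, plus strand: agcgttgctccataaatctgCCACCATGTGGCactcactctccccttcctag
SMC3 at −10473 bp, chr10:110557176-110557227, plus strand: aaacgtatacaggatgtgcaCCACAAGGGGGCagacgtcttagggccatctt

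The partners of the 9 genes were compared through 2 lists. Of other mitotic cohesin genes, 12 of 12 had a TSS peak in both replicates, with a median fold enrichment of 65.5 (range 17.9 to 93.2), beside the 79.3% of all genes. STAG2, the alternative to STAG1, had 85.8 and 99.3, below STAG1 in both replicates. SMC1A, the mitotic counterpart of SMC1B, had 38.2 and 40.2, close to its partner SMC3 and above SMC1B in both replicates. MAU2, which works with NIPBL, had 66.5 and 65.7. SMC1A and MAU2 also had a start on the opposite strand within 1 kb, of RIBC1 and SUGP1. PDS5A, with 60.5 and 68.3, and PDS5B, with 63.5 and 67.7, which help WAPL release cohesin, had peaks below the WAPL peak.

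Of the germline list, 7 of 15 genes had a TSS peak in both replicates, beside the 79.3% of all genes. Whether each gene of this list, SGO2 among them, is restricted to the germline was not checked. The meiotic STAG3 had 46.5 and 52.4, with a start of GPC2 on the opposite strand within 1 kb, as with SMC1B and RIBC2. RAD21L1, a meiotic kleisin, had 33.4 and 30.3, about the level of RAD21 and far above REC8. SGO2, a protector of centromeric cohesion, had 115 and 105, and SYCP2, of the synaptonemal complex, 68.6 and 73.0. Both also had a coding start on the opposite strand, of KCTD18 and FAM217B, as did SYCP3, without a TSS peak, with CHPT1. DMC1, a recombinase, had 26.0 and 25.0, SPO11, which makes meiotic breaks, 17.9 and 15.9, and MEI1 8.74 and 8.40 away from its 5′ TSS. Of the 8 genes without a peak in both, HORMAD1, MEIOB and BRDT had one in replicate 2 only, with fold enrichments of 3.10, 4.64 and 4.42.

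As a check of the label, 7 of 7 luminal epithelial genes (ESR1, GATA3, FOXA1, KRT8, KRT18, KRT19 and EPCAM) had TSS peaks, beside the 79.3% of all genes, and the ESR1 peak was not at its most 5′ TSS. The blood genes PTPRC and CD3E had none, while CD14 had one, and 4 of 4 fibroblast genes did, with mean fold enrichments from 9.36 to 70.3. With peaks also at genes of other cell types, the counts do not set the luminal list apart. The median fold enrichment was 87.6 in the luminal list (31.9 to 143) and 42.1 in the fibroblast list, with overlapping ranges. The median fold enrichment of peaks over 3 kb from any TSS and within 2 Mb of each gene was 7.59 to 9.66 in replicate 1, where the genome had 7.82, and 6.85 to 8.85 in replicate 2, where the genome had 7.52. REC8 had the highest of these values in replicate 1, beside its weak TSS peaks. The part of copy number in the differences between genes was not tested.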

How the data were processed

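ATAC-seq of CAMA-1 was analysed from the peak list of each of 2 biological replicates. The authors trimmed the reads, aligned them to hg38 and called peaks in each replicate, per their processing notes with Trim Galore 0.6.5, Bowtie2 2.3.5.1 and MACS2 2.2.6. Caller settings and the treatment of duplicates are not given in the sources used here. The deposited files hold 4 values per peak. The authors give a score, the ratio over background called fold enrichment, and the p-value and q-value as −log10. The score and the p-value were not used for results.

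From these, peak heights were recovered as whole steps of the fold enrichment (0.230 in replicate 1 and 0.221 in replicate 2, all within 7.91e-05 of a step), with backgrounds of 3.35 and 3.52 reads. This takes the fold enrichment as (height + 1)/(background + 1), an assumption that the sources do not state and on which all heights and their intervals rest. Library totals are stated by the study outside the peak lists and were not used here, so precision is given by exact Poisson intervals of heights and Wilson intervals of shares. Genes and TSSs were from GENCODE release 44, and windows and motifs were read from hg38. Both replicates were used side by side, and with 1 condition no test was made. Analyses used Python 3.11.15, numpy 2.4.6, pandas 2.3.3, scipy 1.17.1, pysam 0.24.0 and matplotlib 3.10.9, with functions tested on simulated data.

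The genes and lists were chosen with earlier results of these data known. One gene of the blood marker list is not reported here. Named were the 9 genes, 7 close partners, list genes that differed from the majority of their list, and some genes whose TSS lay within 1 kb of theirs or of a named region. Beyond this rule, marker genes were named as a list, and 4 germline genes without a peak in both replicates after their values were seen. Regions were named if among the 3 strongest of a gene by mean fold enrichment, if they held a motif match, or if the strongest in 1 replicate only. Other regions of RAD21, CTCF and CTCFL were named after their values were seen. The promoter motifs, the background of GC-rich genes with few CpGs and the central motif with 1 mismatch were chosen after seeing the data. The alternatives tried were stricter peaks (−log10 q of 10 or more, or the 50000 strongest per replicate), other distances and flanks, a single TSS per gene, a reciprocal overlap of 50%, other motif settings and the omission of each replicate.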

Additional observations from a re-analysis of the deposited data

How the results depend on the processing

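Of 79 alternative values for 14 results, 68 stayed within the limits set for them and 11 moved. For the fold enrichments and the ratio of medians, the limit was the SD of the 2 replicates. A single replicate cannot lie beyond that limit, so these values without 1 replicate counted as unchanged whatever the data. A change of direction was not scored. The motif share, however, lay below that of the genome with exact matches and above it with 1 mismatch allowed. The 6 ubiquitous genes kept their TSS peaks under each alternative, and CTCFL had none under any. Testis-restricted genes with a TSS peak fell from 2 to 0 among the 50000 strongest peaks of each replicate and to 1 (SMC1B) with only the most 5′ TSS, while all protein-coding genes with one went from 15890 to 12298 and 14367. With only the most 5′ TSS the ratio of medians became 3.68. With the −log10 q in place of the fold enrichment that ratio was 10.0. Regions over the genes numbered 82 with a −log10 q of at least 10, 26 among the 50000 strongest peaks, 71 in gene bodies alone and 215 with flanks of 50 kb, as fewer or more peaks entered. With flanks of 5 kb they numbered 84, against 124 in the main setting. The limits counted this value as unchanged and the 82 as moved. The share with a CTCF motif was 0% within 50 bp of the midpoint (0 of 108, which by a limit of 3 counts allows up to 2.78%; genome 1.84%), 19.4% with up to 1 mismatch (genome 15.1%), and 14.8% with both (genome 7.82%), the last chosen after seeing the data. These 108 regions include 23 at TSSs of other genes, which the genome values leave out. Leaving out each replicate gave 142 to 150 regions, a ratio of medians of 4.69 to 6.75, 16050 to 16147 protein-coding genes with a TSS peak and motif shares of 1.61% to 2.29%, and left the counts of 6 and 2 genes as they were.

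No paired analysis was possible because the replicates belong to a single condition. The peak lists do not carry library depth, and the study's totals were not used here. A missing peak means that none passed the authors' threshold, and weak regions such as those of REC8 rest on few stacked reads, 14 at the lowest REC8 peak.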
